A study of Rattus norvegicus with 9 samples.

Results

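The genes described here are 10 members of the major histocompatibility complex (MHC) pathway of antigen presentation, measured by RNA sequencing in the whole brain of 9 rats. Each was taken as the locus of the deposited count table whose annotated gene name, on the same strand, was the member's, and where several loci carried a name the locus of highest mean count was used. They make up 10 of 114601 loci, and the rule uses no measured difference between genotypes. The members were RT1-A2, RT1-CE10, B2m, Tap1, Tapbp, Psmb8 and Psmb9 of the class I pathway and RT1-Da, RT1-Db1 and Cd74 of the class II pathway. In rats the MHC is called RT1.

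The study asked how brain RNA differs when Lrap, a gene for a long non-coding RNA, is deleted. Its 3 homozygous and 3 heterozygous rats carried, on both or on 1 of their chromosomes, a deletion of 618 bp made with CRISPR/Cas9 (strain Crl:WI-Lrapem1Geh), and the 3 wild-type rats were Wistar rats of Charles River. All 9 were untreated, alcohol-naive males, and the sources used here give no age. The labels give the mutant line as a single allele and number the rats 1 to 3 within a genotype. Whether mutants and wild types came from the same litters is not stated, so the line and its genotype cannot be told apart in a comparison with wild-type rats. P-values measure the spread between these rats.

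Class I molecules are made of a heavy chain and the light chain beta-2-microglobulin. They show peptides cut in the cytosol, by the proteasome or its interferon-inducible form, the immunoproteasome, after a transporter has carried the peptides into the endoplasmic reticulum. Class II molecules are made of an alpha and a beta chain, are held by the invariant chain until they reach the endosome, and show peptides of material the cell has taken up. In the resting brain class I RNA is found at low levels in many cell types, and class II RNA mainly in macrophages of the borders and vessels and in some microglia.

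Depth ran from 27489383 to 46975919 expected counts, and mitochondrial loci took 14.8 to 40.4% of them, the most in wild-type rat 2. Genes of neurons, astrocytes and oligodendrocytes were present in every library labelled whole brain. The Lrap isoform was at 0.244, 0.383 and 0.404 CPM (expected counts scaled for library size) in homozygous rats, 0.992, 1.03 and 1.12 in heterozygous rats and 2.53, 1.86 and 2.42 in wild-type rats, the order of the labels. By the proportions of spike-in RNA the libraries fell into 2 sets, with the 3 homozygous rats and wild-type rat 2 in the first and the other 5 in the second. Correlations of spike-in proportions were 0.993 or more within a set and 0.943 or less between them. The labels name no such batch. Only wild-type rats were in both sets, so in homozygous against heterozygous rats set and genotype cannot be told apart. The members' CPM are also compared within each set. The values for isoforms, other genes and markers are given over both sets alone.

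No member passed the test in any comparison. With edgeR's quasi-likelihood method and Benjamini-Hochberg adjustment over 39057 loci, 0 of 10 members had an adjusted p under 0.05 in homozygous against wild-type rats, where the share over all loci was 0.0%. The count was also 0 of 10 in heterozygous against wild-type rats (0.00768% of all loci) and in homozygous against heterozygous rats (0.00256%). At an unadjusted p under 0.05, RT1-A2 alone was higher in homozygous than in wild-type rats, against 4.88% of all loci, and none was lower (4.25%). In heterozygous against wild-type rats none was higher or lower (1.37% and 2.35% of all loci), nor in homozygous against heterozygous rats (0.512% and 1.2%). Among 14637 loci with a gene symbol these counts, higher and lower, were 1493 and 97, 285 and 42, and 56 and 53 in the 3 comparisons. DESeq2 and limma-voom also called 0 of 10 in each comparison.

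All 10 members had a log2 fold change above 0 in homozygous against wild-type rats and 9 of 10 in heterozygous against wild-type rats, where B2m was the exception, on the CPM scale. The shares over all loci tested were 44.3% and 45.1%, and over loci with a gene symbol 73.8% and 66.9%. In homozygous against heterozygous rats it was 5 of 10, against 50.7% of all loci. The median log2 fold change of the members was 0.36, 0.47 and 0.00 in these 3 comparisons, and that of the 14637 symbol loci was 0.15, 0.08 and 0.08.

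The direction depended on the scale. On the deposited TPM scale, in which counts are divided by effective length and scaled to a fixed total, the mean was above wild type for 1 of 10 members in homozygous and for 7 of 10 in heterozygous rats. The median symbol locus sat at a log2 ratio of -0.64 on the TPM scale and 0.15 on the CPM scale in homozygous against wild-type rats, a shift of -0.78. Set against that median, 8 of 10 members were higher by TPM and 9 of 10 by CPM. For heterozygous against wild-type rats the medians were -0.29 and 0.08, and 9 of 10 members lay above the median on both scales. For homozygous against heterozygous rats they were -0.34 and 0.08, with 3 of 10 members above the median by TPM and 4 of 10 by CPM. Levels below are CPM unless TPM is named, and CPM is compared only within a gene.

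**Figure D1:**
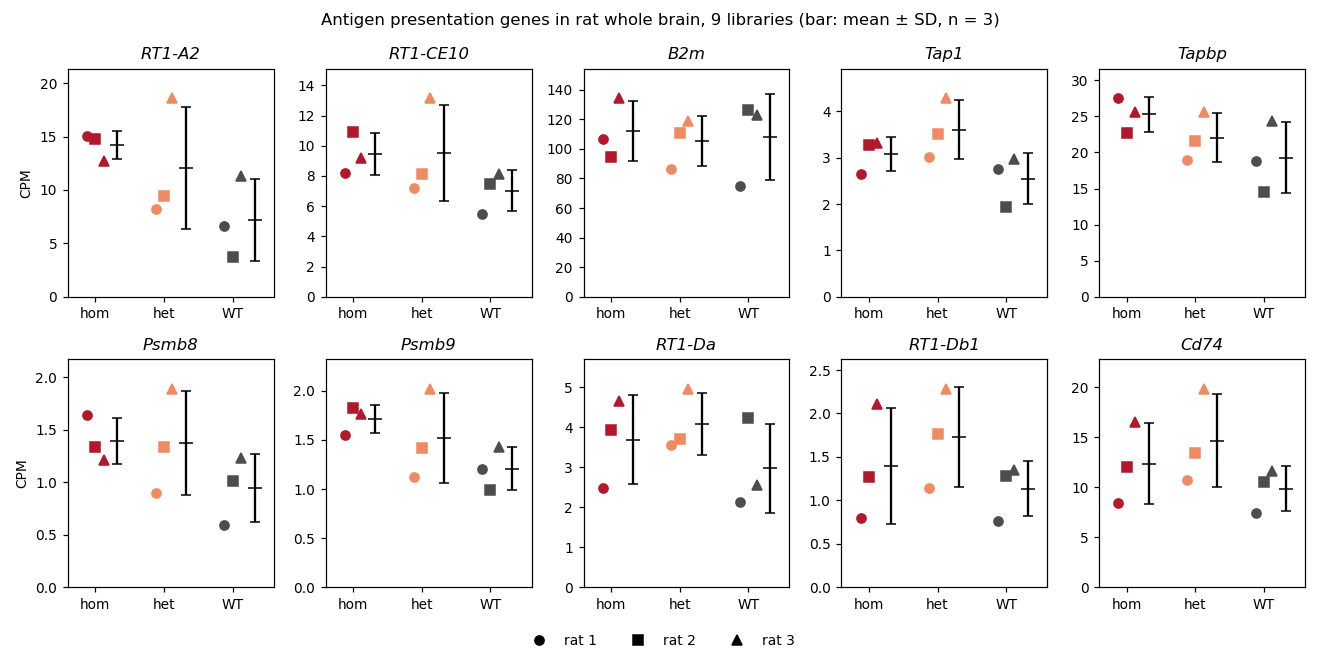
CPM of the 10 genes (vertical axes, from 0) in homozygous (hom), heterozygous (het) and wild-type (WT) rats, with a symbol per rat number and bars for mean ± SD (n = 3). Homozygous rats lie wholly above wild-type rats for RT1-A2, RT1-CE10 and Psmb9, and heterozygous rat 3 is the highest of 9 for 8 genes.

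Within the first set of libraries, the mean of the 3 homozygous rats was above wild-type rat 2 in 8 of 10 members, RT1-Da and B2m being lower, where 81.2% of symbol loci were higher. For RT1-A2 these values were 14.2 and 3.69 CPM. Within the second set, the mean of the 3 heterozygous rats was above that of wild-type rats 1 and 3 in 10 of 10 members, where 45.5% of symbol loci were higher. For RT1-A2 these means were 12.1 and 8.99 CPM. With 1 and 2 wild-type libraries these are values without a test. Homozygous and heterozygous rats never shared a set.

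Of the 10 members, RT1-A2 had the largest log2 fold change in homozygous and in heterozygous against wild-type rats. RT1-A2 encodes a classical class I heavy chain, and RT1-CE10 a class I heavy chain of the RT1-C/E region. The promoter windows of both are shown, with that of B2m, to set the members of the heavy chain family beside their shared light chain. RefSeq (GRCr8) places them at chr20:4872621-4872920 (plus strand) and chr20:3384930-3385229 (minus strand), from 250 bases before to 50 bases after the start, and the B2m window is at chr3:129549080-129549379 (plus strand). All 10 members had a window in RefSeq. Capitals mark GGGATTCCC (within the NF-kB site of the class I enhancer), GGACTTTCC (within another NF-kB site), GAAANNGAA (the core of an interferon response element) and ATTGG (Y box), on either strand. No motif overlaps another in these 3 windows.
RT1-A2: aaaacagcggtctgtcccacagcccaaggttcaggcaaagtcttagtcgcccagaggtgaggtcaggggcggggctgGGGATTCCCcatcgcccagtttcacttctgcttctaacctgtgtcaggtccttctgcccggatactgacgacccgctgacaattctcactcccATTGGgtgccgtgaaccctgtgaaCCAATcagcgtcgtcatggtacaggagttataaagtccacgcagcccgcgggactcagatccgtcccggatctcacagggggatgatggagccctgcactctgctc
RT1-CE10: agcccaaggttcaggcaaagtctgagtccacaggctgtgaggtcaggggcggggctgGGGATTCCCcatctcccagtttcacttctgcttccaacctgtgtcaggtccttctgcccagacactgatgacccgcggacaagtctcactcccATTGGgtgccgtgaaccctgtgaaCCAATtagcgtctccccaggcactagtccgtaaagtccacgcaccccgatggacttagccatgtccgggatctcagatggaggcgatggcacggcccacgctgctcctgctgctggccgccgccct
B2m: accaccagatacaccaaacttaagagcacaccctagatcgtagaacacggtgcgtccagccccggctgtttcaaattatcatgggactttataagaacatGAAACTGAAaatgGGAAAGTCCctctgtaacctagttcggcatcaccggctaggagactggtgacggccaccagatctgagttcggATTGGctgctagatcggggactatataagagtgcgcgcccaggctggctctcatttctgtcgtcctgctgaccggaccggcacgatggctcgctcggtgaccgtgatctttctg

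The windows of RT1-A2 and RT1-CE10 shared 244 of 270 aligned bases (90.4%). Both held GGGATTCCC, which 0.365% of 33469 rat promoter windows hold, and ATTGG on each strand. B2m held GGACTTTCC (0.305% of windows, with Tap1 the other member) and GAAANNGAA (9.71%, with Tap1, Tapbp and Psmb8). ATTGG was in 8 of 10 members and in 37.5% of all windows. The motifs were chosen after the sequences were seen, and a match is a run of letters, not a measured site. A window without these exact letters may hold another form of the same element.

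RT1-A2 was at 15.1, 14.8 and 12.7 CPM in homozygous rats, 8.19, 9.42 and 18.6 in heterozygous rats and 6.67, 3.69 and 11.3 in wild-type rats. All homozygous rats were above all wild-type rats, while heterozygous rats overlapped both. Homozygous rats averaged 14.2 ± 1.32 CPM, heterozygous rats 12.1 ± 5.67 and wild-type rats 7.23 ± 3.84 (SD, n = 3 each). Against wild type, the log2 fold change was 0.97 (SE 0.38, edgeR adjusted p = 0.544) in homozygous and 0.74 (SE 0.38, adjusted p = 0.981) in heterozygous rats. Without wild-type rat 2, the lowest library, it was 0.66 in homozygous rats, and without wild-type rat 3 it was 1.48 (edgeR adjusted p = 0.0894). The adjusted p of edgeR, DESeq2 and limma-voom fits ran from 0.0481 to 0.992 over all alternatives, and the lowest, a log2 fold change of 1.94, came with the spike-in set as a covariate. By TPM the homozygous mean was 112% of wild type, and the libraries overlapped (exact permutation p = 0.7).

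The locus counted as RT1-A2 (chromosome 20, 5352375 to 5416742, plus strand, rn6) holds several genes. Its isoforms are named RT1-A2, RT1-A1 and RT1-CE9-ps1, and the RT1-A2 isoform took 59.7 to 75.0% of the locus by the authors' isoform percent. That isoform was at 10.2, 10.01 and 9.48 CPM in homozygous, 6.11, 7.63 and 13.4 in heterozygous and 4.79, 3.06 and 8.77 in wild-type rats. The RT1-A1 isoform was at 3.14, 3.25 and 1.95 CPM in homozygous, 1.10, 0.898 and 3.53 in heterozygous and 1.14, 0.104 and 1.64 in wild-type rats. In both isoforms every homozygous rat was above every wild-type rat. This did not hold for a separate locus named RT1-A1 on the same strand. It was at 2.06, 3.68 and 3.30 CPM in homozygous and 1.92, 3.22 and 3.30 in wild-type rats. Its log2 fold change was 0.11 (SE 0.33, edgeR adjusted p = 0.915). A second locus named RT1-A2 gave a log2 fold change of 0.47 (SE 0.36), and with its counts added the value was 0.84 (edgeR adjusted p = 0.544). The copies cannot be told apart with certainty from deposited counts, and Vps52, a vesicle transport gene on the opposite strand, overlaps the locus at 24.4 to 47.5 CPM. The sources used here do not say whether counting used the strand.

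RT1-CE10 was at 8.18, 10.9 and 9.22 CPM in homozygous rats, 7.21, 8.15 and 13.1 in heterozygous rats and 5.49, 7.45 and 8.15 in wild-type rats. Homozygous rats again lay above wild-type rats, narrowly for the closest pair. The log2 fold change was 0.43 in both homozygous (SE 0.25, edgeR adjusted p = 0.563) and heterozygous rats (SE 0.25, adjusted p = 0.981) against wild type. Its locus (chromosome 20, 130097 to 176545, minus strand, rn6) was assembled as 15 isoforms, 13 of them named RT1-CE10. An unnamed locus on the opposite strand overlaps it at 14.8 to 39.4 CPM.

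B2m, which encodes the light chain shared by all class I molecules, was at 107, 94.5 and 134 CPM in homozygous rats, 86.6, 111 and 119 in heterozygous rats and 74.7, 127 and 123 in wild-type rats. The genotypes overlapped throughout. The log2 fold change was 0.05 (SE 0.21) in homozygous and -0.04 (SE 0.21) in heterozygous rats against wild type (edgeR adjusted p = 0.943 and 0.994). By TPM, homozygous rats had 59.6% of the wild-type mean, and the libraries overlapped (exact permutation p = 0.2). Relative to the median symbol locus, which was lower by TPM too, the log2 ratio of B2m was -0.11.

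Set against its own light chain, RT1-A2 TPM was 35.9, 39.1 and 23.9% of B2m TPM in homozygous rats, 24.2, 21.4 and 38.8% in heterozygous rats and 22.5, 7.31 and 23.3% in wild-type rats. This ratio within a library does not depend on the scaling. Homozygous rats lay just above wild-type rats, at 33.0 ± 8.02% and 17.7 ± 8.99% (SD, n = 3 each), with an exact two-sided permutation p = 0.1, the smallest that 3 against 3 allows. With only the isoform named RT1-A2, the shares were 21.4, 23.9 and 15.7% in homozygous rats, 16.2, 14.9 and 24.9% in heterozygous rats and 14.7, 5.47 and 15.7% in wild-type rats (exact permutation p = 0.2 for homozygous against wild-type rats).

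Tap1 encodes a subunit of the peptide transporter. It was at 2.65, 3.27 and 3.32 CPM in homozygous rats, 3.01, 3.52 and 4.28 in heterozygous rats and 2.76, 1.93 and 2.96 in wild-type rats. It was the only member whose heterozygous rats all lay above the wild-type rats, against 2.69% of all loci, and none lay wholly below (3.81%). The log2 fold change was 0.28 (SE 0.25, edgeR adjusted p = 0.679) in homozygous and 0.50 (SE 0.24, adjusted p = 0.981) in heterozygous rats. Isoforms of Tap2, the transporter's other subunit, were assembled into the same locus, where the Tap1 isoform took 72.2 to 89.0% of the CPM and 42.0 to 81.8% by isoform percent. By TPM the Tap1 isoform was at 0.30, 0.37 and 0.40 in homozygous rats, 0.38, 0.70 and 0.52 in heterozygous rats and 0.45, 0.34 and 0.67 in wild-type rats, and the genotypes overlapped.

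Tapbp encodes tapasin, which bridges the transporter and the empty class I molecule. Its locus was at 27.5, 22.6 and 25.7 CPM in homozygous rats, 18.9, 21.6 and 25.7 in heterozygous rats and 18.8, 14.6 and 24.4 in wild-type rats. Homozygous and wild-type rats overlapped only through wild-type rat 3. The log2 fold change was 0.39 (SE 0.20, edgeR adjusted p = 0.544) in homozygous and 0.20 (SE 0.20, adjusted p = 0.981) in heterozygous rats. Without wild-type rat 3 the homozygous value was 0.63, and with an effective-length offset it was 0.22. By TPM the order was the opposite, with 3.18, 3.18 and 3.19 TPM in homozygous and 4.41, 3.49 and 6.24 in wild-type rats (exact permutation p = 0.1). The median symbol locus was also lower on that scale, at a log2 ratio of -0.64, and relative to it the Tapbp locus was at 0.07. The isoforms named Tapbp alone overlapped, at 1.33, 1.23 and 1.56 TPM in homozygous and 1.72, 1.51 and 2.78 in wild-type rats (exact permutation p = 0.2).

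Within the Tapbp locus the isoforms differed. Zbtb22, a neighbouring zinc-finger gene, named a pair of isoforms that took 39.9 to 52.7% of the CPM. The longest Tapbp isoform, with 9 exons and 6047 exon bases, was at 12.1, 6.25 and 8.89 CPM in homozygous rats, 6.01, 5.21 and 8.30 in heterozygous rats and 3.71, 2.21 and 5.89 in wild-type rats. All homozygous rats exceeded all wild-type rats. Its log2 fold change was 1.20 (SE 0.39, edgeR unadjusted p = 0.0136), which did not pass over 63699 isoforms (edgeR adjusted p = 0.68). The other Tapbp isoform, of 6 exons and 2630 bases, gave -0.18 (SE 0.31). By the authors' isoform percent the long isoform took 24.2, 13.6 and 17.5% of the locus in homozygous rats, 16.04, 11.1 and 16.1% in heterozygous rats and 9.21, 6.92 and 11.1% in wild-type rats.

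Over all member loci, 0 of 22 isoforms tested were called in homozygous against wild-type rats (0.0% of all isoforms), and 0 of 22 in heterozygous against wild-type (0.00157%) and homozygous against heterozygous rats (0.0%). At an unadjusted p under 0.05 there were 2, the long Tapbp isoform and the RT1-CE9-ps1 isoform of the RT1-A2 locus, both higher in homozygous than in wild-type rats, against 3.64% of all isoforms, and none was lower (3.27%). Homozygous rats lay wholly above wild-type rats in 6 of 22, against 6.55%. These were all 3 isoforms of the RT1-A2 locus, an unnamed isoform of the RT1-CE10 locus, the long Tapbp isoform and the only Psmb9 isoform. Isoforms of a locus divide its reads, so the 6 are not separate cases. Heterozygous rats lay wholly above wild-type rats in 1 of 22, the Cd74 isoform with 9 exons, against 3.65%. Of 29 member isoforms with any count, the other 7 were too low to test, and limma-voom also called 0.

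**Figure D2:**
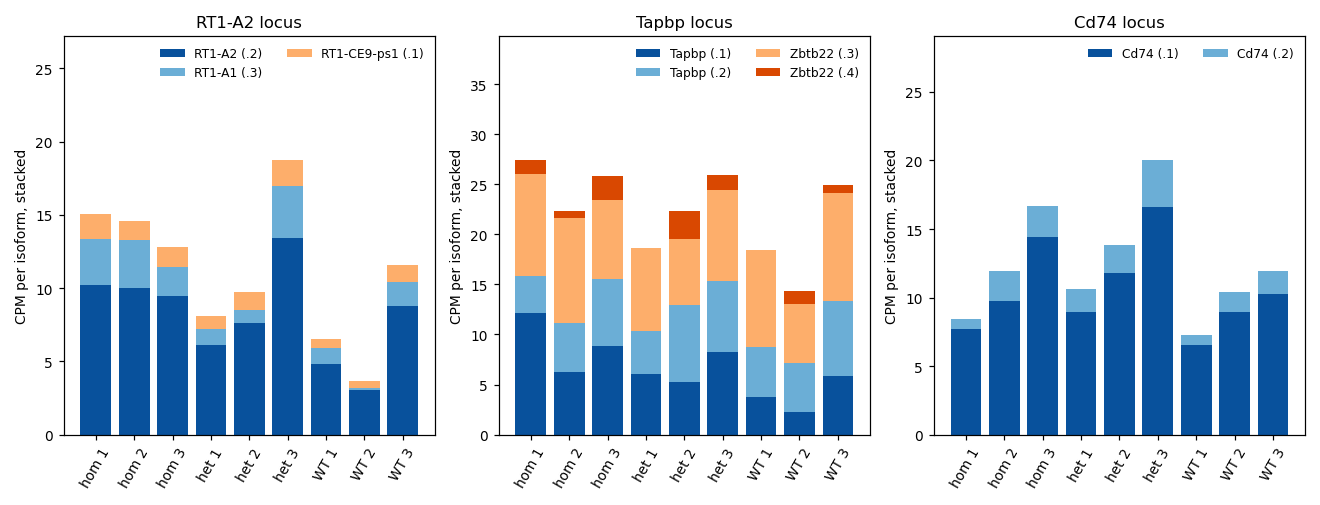
Stacked CPM per isoform (vertical axes, from 0) at the RT1-A2, Tapbp and Cd74 loci in each of 9 libraries, homozygous (hom), heterozygous (het) and wild type (WT). The long Tapbp isoform reaches 12.1 CPM in homozygous rat 1 and 2.21 CPM in wild-type rat 2, and Zbtb22 isoforms fill the upper part of that locus.

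Psmb8 and Psmb9 encode catalytic subunits that replace constitutive ones in the immunoproteasome. Psmb8 was at 1.64, 1.33 and 1.21 CPM in homozygous rats, 0.901, 1.33 and 1.89 in heterozygous rats and 0.588, 1.01 and 1.23 in wild-type rats. Psmb9 was at 1.55, 1.82 and 1.76 CPM in homozygous rats, 1.12, 1.41 and 2.02 in heterozygous rats and 1.20, 0.989 and 1.43 in wild-type rats. Homozygous and wild-type rats overlapped for Psmb8 and did not for Psmb9. In homozygous against wild-type rats Psmb8 had a log2 fold change of 0.55 (SE 0.36) and Psmb9 of 0.51 (SE 0.29) (edgeR adjusted p = 0.591 and 0.557). Both rest on few counts, with means of 48.0 and 58.1 per library.

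Per length, Psmb8 stayed far under the constitutive subunit it replaces. Psmb8 TPM was 5.29 ± 1.01% of Psmb5 TPM in homozygous, 5.62 ± 1.34% in heterozygous and 4.65 ± 1.54% in wild-type rats (SD, n = 3 each). Psmb9 TPM was 9.89 ± 1.95% of Psmb6 TPM in homozygous, 10.2 ± 0.230% in heterozygous and 10.6 ± 1.96% in wild-type rats (SD, n = 3 each). Homozygous and wild-type rats overlapped in both shares (exact permutation p = 0.5 for each).

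In total 3 of 10 members, RT1-A2, RT1-CE10 and Psmb9, had homozygous libraries wholly above wild-type ones, where 7.28% of all loci did. The count was also 3 without wild-type rat 1 (10.2% of all loci) or without wild-type rat 2 (10.1%). It was 5 without wild-type rat 3, with Tapbp and Psmb8, where the share over all loci also went up, to 20.4%. None lay wholly below (6.11% of all loci), and none separated homozygous from heterozygous rats, above (4.72%) or below (4.1%).

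**Figure D3:**
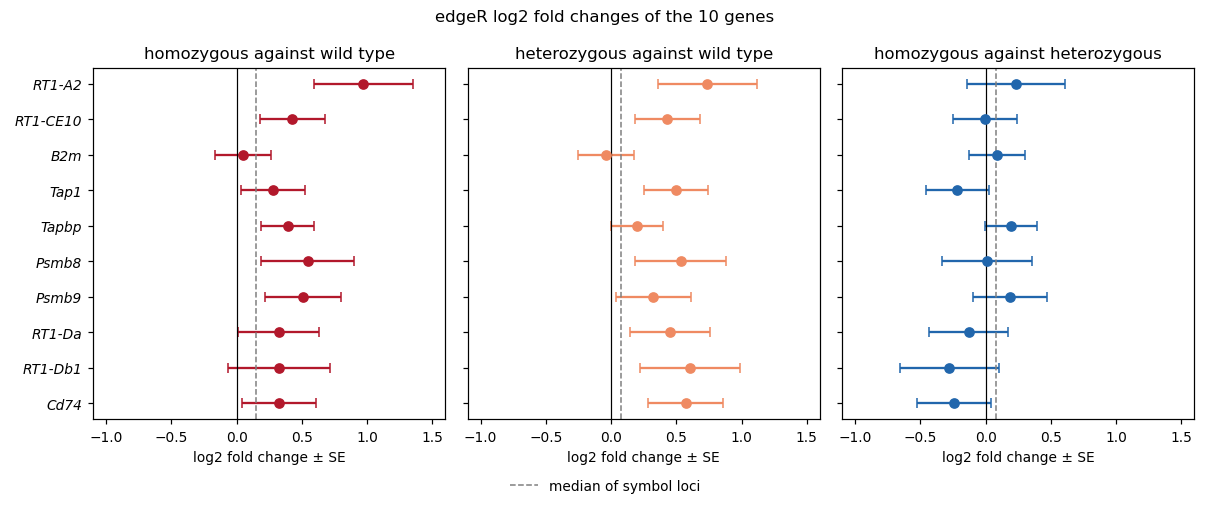
Log2 fold change ± SE of edgeR (horizontal axes) for the 10 genes in the 3 comparisons, with a dashed line at the median of symbol loci. In homozygous against wild-type rats RT1-A2 is farthest from 0 at 0.97 and B2m nearest at 0.05.

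All 3 class II members overlapped between the genotypes in CPM. RT1-Da encodes an alpha and RT1-Db1 a beta chain of the class II molecule that corresponds to human HLA-DR, and Cd74 encodes the invariant chain. Their promoter windows are shown because these genes varied together across libraries. RefSeq (GRCr8) gives chr20:4515165-4515464 (plus strand) for RT1-Da, chr20:4560113-4560412 (minus strand) for RT1-Db1 and chr18:56526956-56527255 (plus strand) for Cd74. Capitals mark CTAGNAAC (the core of the X box of class II genes) and ATTGG (Y box), on either strand.
RT1-Da: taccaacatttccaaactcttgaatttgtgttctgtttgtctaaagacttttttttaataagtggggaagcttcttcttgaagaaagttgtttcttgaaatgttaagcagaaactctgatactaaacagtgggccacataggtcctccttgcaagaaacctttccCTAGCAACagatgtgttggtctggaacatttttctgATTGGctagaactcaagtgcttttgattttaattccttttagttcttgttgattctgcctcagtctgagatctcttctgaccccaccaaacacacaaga
RT1-Db1: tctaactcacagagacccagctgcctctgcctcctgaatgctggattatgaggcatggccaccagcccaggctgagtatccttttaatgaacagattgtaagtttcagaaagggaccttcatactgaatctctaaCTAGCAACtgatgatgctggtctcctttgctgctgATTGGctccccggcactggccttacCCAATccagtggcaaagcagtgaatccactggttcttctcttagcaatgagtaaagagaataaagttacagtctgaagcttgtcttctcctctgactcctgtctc
Cd74: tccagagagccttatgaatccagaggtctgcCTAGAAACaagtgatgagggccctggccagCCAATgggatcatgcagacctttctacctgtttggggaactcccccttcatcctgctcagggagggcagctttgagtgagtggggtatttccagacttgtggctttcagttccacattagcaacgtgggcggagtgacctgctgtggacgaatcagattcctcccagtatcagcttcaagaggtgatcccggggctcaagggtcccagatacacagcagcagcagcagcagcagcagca

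CTAGNAAC was found in the windows of these 3 members and of no other member, and in 3.59% of all windows. All 3 also held ATTGG, a combination present in 1.36% of windows. The strand of a gene in GRCr8 can differ from that in rn6, and the sequences run along each gene's own strand.

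Cd74 was at 8.45, 12.1 and 16.6 CPM in homozygous rats, 10.7, 13.4 and 19.9 in heterozygous rats and 7.39, 10.6 and 11.7 in wild-type rats. Each genotype spanned a wide range, rising from rat 1 to rat 3 in all 3 genotypes, and all overlapped. Homozygous rats averaged 12.4 ± 4.06 CPM, heterozygous rats 14.7 ± 4.69 and wild-type rats 9.87 ± 2.22 (SD, n = 3 each). The log2 fold change was 0.33 (SE 0.28, edgeR adjusted p = 0.676) in homozygous and 0.57 (SE 0.28, adjusted p = 0.981) in heterozygous rats against wild type. By TPM these means were 72.5% and 113% of wild type. Relative to the median symbol locus by TPM, the log2 ratios of Cd74 were 0.17 in homozygous and 0.46 in heterozygous rats.

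RT1-Da was at 2.48, 3.93 and 4.66 CPM in homozygous rats, 3.56, 3.70 and 4.96 in heterozygous rats and 2.12, 4.24 and 2.56 in wild-type rats. RT1-Db1 was at 0.796, 1.26 and 2.11 CPM in homozygous rats, 1.14, 1.76 and 2.29 in heterozygous rats and 0.767, 1.28 and 1.35 in wild-type rats. No genotype stood apart in either gene. RT1-Db1 rose from rat 1 to rat 3 in every genotype, and RT1-Da did so in homozygous and heterozygous but not in wild-type rats. In homozygous against wild-type rats RT1-Da had a log2 fold change of 0.32 (SE 0.31) and RT1-Db1 of 0.33 (SE 0.39), and in heterozygous rats 0.45 (SE 0.31) and 0.60 (SE 0.38), with edgeR adjusted p of 0.705 or more. Without homozygous rat 3 the homozygous value of RT1-Db1 was -0.08.

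Across the 9 libraries Cd74 and RT1-Db1 kept close proportions, and RT1-Da varied more. On log2(CPM + 0.5), Pearson's r was 0.98 between Cd74 and RT1-Db1, 0.84 between Cd74 and RT1-Da and 0.83 for the pair of chains. Without the 2 libraries farthest from the median it was 0.96 for RT1-Db1 and 0.62 for RT1-Da with Cd74, and 0.59 for the pair of chains. RT1-Db1 TPM was 9.52 to 12.7% of Cd74 TPM in all 9 libraries, 10.7 ± 1.52, 11.3 ± 1.23 and 11.1 ± 0.720% in homozygous, heterozygous and wild-type rats (SD, n = 3 each). RT1-Da TPM was 20.5 to 37.6% of Cd74 TPM, and RT1-Db1 TPM was 31.1 to 55.1% of RT1-Da TPM. These points share libraries, depth and scaling, and the correlations are descriptions.

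Among the 21 pairs of class I pathway members r ran from 0.03 to 0.94 with a median of 0.68, and among the 21 pairs across the classes from -0.03 to 0.82 with a median of 0.54. RT1-A2 was closest to the Tapbp locus, Zbtb22 isoforms included (0.94), and to Psmb9 (0.92), and had r = 0.14 with B2m. Without wild-type rats 1 and 2 these values were 0.78, 0.91 and 0.35. Psmb8 (0.86) and RT1-CE10 (0.84) were then closer to RT1-A2 than the Tapbp locus was. Of 14636 symbol loci, the 5 with the highest r with Cd74 were RT1-Db1 (0.98), Dab2 (0.97), Cpq (0.97), Slc2a12 (0.95) and Fkbp9 (0.95). The 5 closest to B2m were Ndufc2 (0.97), Atp5h (0.97), Uqcrh (0.97), Pfdn1 (0.96) and Lpar4 (0.96), over the same 9 libraries.

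**Figure D4:**
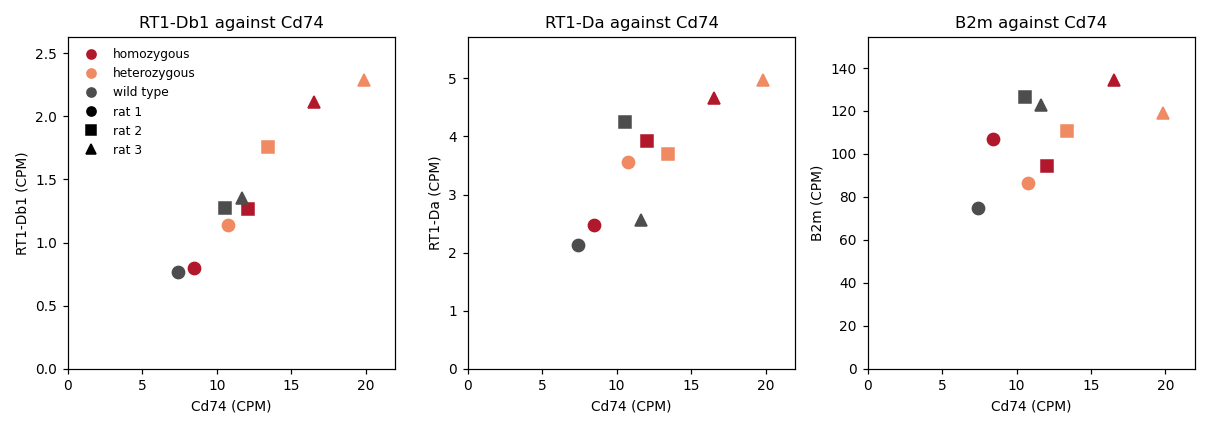
CPM of RT1-Db1, RT1-Da and B2m (vertical axes) against CPM of Cd74 (horizontal axes), with a point per library, coloured by genotype and shaped by rat number. RT1-Db1 rises with Cd74 along a narrow line (r = 0.98), with all genotypes along it, and B2m is more scattered (r = 0.63).

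Cd74 was assembled as a pair of isoforms that differ by an internal exon of 192 bases, exon 7 of the form with 9 exons, at 56079521 to 56079712 on chromosome 18 (rn6). In human and mouse, a long form of the invariant chain carries an extra exon that codes for a thyroglobulin-type domain. The isoform with the exon took 12.6, 25.2 and 19.7% of Cd74 in homozygous rats, 22.3, 20.7 and 24.1% in heterozygous rats and 13.8, 19.9 and 19.8% in wild-type rats. The genotypes overlapped.

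Per length, the order of mean TPM over the 9 libraries was B2m (33.5 TPM), RT1-A2 (8.10), Cd74 (6.38), RT1-CE10 (6.32), Tapbp (3.93), RT1-Da (1.74), Psmb8 (1.06), Psmb9 (0.973), Tap1 (0.820) and RT1-Db1 (0.720). These are values of whole loci. Among neighbours in this order, B2m lay above RT1-A2 and the Tapbp locus above RT1-Da in all libraries without overlap. The isoforms named Tapbp, without Zbtb22, averaged 1.75 TPM and were above RT1-Da in 4 of 9 libraries. The isoform named RT1-A2 averaged 5.31 TPM, under the means of Cd74 and RT1-CE10. The Tap1 isoform averaged 0.459 TPM, under the mean of RT1-Db1. RT1-CE10 was above Tapbp in each of 9 libraries although the ranges overlapped. Cd74 and RT1-CE10 traded places, with Cd74 higher in 5 of 9 libraries.

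Heterozygous rat 3 was the highest of 9 libraries in 8 of 10 members by CPM, all but B2m and Tapbp. Wild-type rat 1 or 2 was the lowest in 10 of 10. From lowest to highest library by CPM RT1-A2 spanned 5.03-fold, Psmb8 3.21-fold and B2m 1.80-fold. These ranks depended on the scale, and by TPM heterozygous rat 3 was not the highest library for any member. RT1-A2 was highest in wild-type rat 3 (12.2 TPM, against 10.8 in heterozygous rat 3). Cd74 was highest in heterozygous rat 2 (9.54 TPM, against 8.09) and lowest in homozygous rat 1 (3.15 TPM). The ranks of the libraries over all loci were not counted.

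No other gene of the pathway lists passed the test. The counts of log2 fold changes above 0 that follow are to be read against the 73.8% of symbol loci above 0 in homozygous against wild-type rats. The lists hold 1 locus per symbol, that of highest mean count, and include the members. RT1-A2 and RT1-CE10 are among the class I loci, and RT1-Da, RT1-Db1 and Cd74 among the class II genes. B2m, Tap1, Tapbp, Psmb8 and Psmb9 are in the class I loading list, and Cd74 is also in the class II processing list. All 10 members were above 0, so the list counts are not independent of theirs. Of 12 tested class I RT1 loci so counted, 9 had a log2 fold change above 0 in homozygous against wild-type rats. Of these 12, 1 (RT1-A2) had an unadjusted p under 0.05 and 0 were called. Not counted were further tested loci named RT1-CE4 (0.68, SE 0.46, and 0.25, SE 0.63), RT1-A1 (0.11) and RT1-A2 (0.47). After RT1-A2 in order of p came RT1-CE16, at 9.76, 6.21 and 6.83 CPM in homozygous and 3.53, 1.42 and 7.09 in wild-type rats (log2 fold change 0.91, SE 0.47). The locus shared by RT1-CE1 and RT1-CE7 followed (0.55, SE 0.29). RT1-CE16 was past the threshold with the spike-in set as a covariate (2.40, edgeR adjusted p = 0.0367) and in no other setting. Of 8 tested class II genes, Cd74 included, 7 were above 0 and 0 were called, led by RT1-Bb, a beta chain (0.50, SE 0.31), and RT1-DMa, which helps load class II peptides (0.49, SE 0.32).

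In the class I loading list 13 of 15 were above 0 and 0 were called. Psmb10, the further catalytic subunit of the immunoproteasome, was at 5.66, 5.94 and 5.71 CPM in homozygous rats, 3.69, 4.30 and 5.02 in heterozygous rats and 3.99, 3.20 and 4.54 in wild-type rats. Homozygous rats stood above all others, with a log2 fold change against wild type of 0.56 (SE 0.21, unadjusted p = 0.0192, edgeR adjusted p = 0.544). Psmf1, a proteasome inhibitor, gave 0.35 (SE 0.18). The constitutive beta subunits were above 0 in 6 of 7, led by Psmb4 (0.44, SE 0.16), Psmb3 (0.44, SE 0.18) and Psmb6 (0.55, SE 0.28), so that subunits of both kinds of proteasome lay on the same side.

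Of 12 class II processing and control genes, 12 were above 0 and 0 were called, led by Rfxank (0.57, SE 0.19), part of the complex that binds the X box, and the lysosomal proteases Lgmn (0.33, SE 0.17) and Ctsd (0.30, SE 0.18). Among 5 class I-like genes, Hfe, a class I-like molecule of iron control, was at 8.16, 3.69 and 3.45 CPM in homozygous, 1.72, 2.27 and 2.96 in heterozygous and 1.59, 0.238 and 2.62 in wild-type rats. Its log2 fold change of 1.77 (SE 0.61, unadjusted p = 0.0144) did not pass (edgeR adjusted p = 0.544), except with the spike-in set as a covariate (4.41, adjusted p = 0.0172). Fcgrt, the neonatal Fc receptor, gave 0.58 (SE 0.21) and Cd1d1, which presents lipids, 0.53 (SE 0.43). In the interferon list 20 of 24 were above 0, among them Irf1 (0.40, SE 0.22) and Gbp2 (0.41, SE 0.30), and 0 had an unadjusted p under 0.05.

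Of the summed markers of other cells given here, those of microglia alone were wholly higher in homozygous than in wild-type rats. The summed CPM of 13 microglial markers ran from 150 to 174 in homozygous, 136 to 164 in heterozygous and 113 to 147 in wild-type rats. In homozygous against wild-type rats 5 of 13 were higher at an unadjusted p under 0.05 (4.88% of all loci, 1493 of 14637 symbol loci). The sum of 12 border macrophage and dendritic markers ran from 45.02 to 61.7, 45.03 to 65.2 and 42.4 to 55.8 in the same order, with Ccr2 at 0 in all 9 libraries and Ms4a7 at 0 in 2. For 9 lymphocyte markers it ran from 4.73 to 6.97, 5.67 to 8.20 and 4.92 to 5.84, mostly Cd4, with Ms4a1 at 0 in 6 libraries and Cd79a in 3. Meningeal sums were 163 to 227, 185 to 330 and 120 to 164, and blood sums 358 to 379, 246 to 481 and 361 to 691. At an unadjusted p under 0.05 in homozygous against wild-type rats, 5 of 9 meningeal markers were higher (Slc6a13, Col3a1, Slc22a6, Islr and Slc22a2), as were 2 of 9 border macrophage and dendritic and 1 of 9 endothelial markers, and 5 of 7 blood markers were lower (Hbb, Alas2, Slc4a1, S100a8 and S100a9). Of 14637 symbol loci, 1493 were higher and 97 lower at that p. The part of these markers in the members' values was not tested. In whole brain, fewer cells of a type and less RNA per cell cannot be told apart.

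Over 9 libraries Cd74 had r = 0.86 with the summed border macrophage and dendritic markers and 0.93 with lymphocyte markers, a sum mostly of Cd4. It had 0.81 with microglial markers and 0.10 with blood markers. RT1-A2 had 0.67, 0.51, 0.74 and -0.21 in the same order, 0.85 with endothelial, 0.79 with meningeal and 0.71 with neuronal markers and 0.75 with the interferon list. Without wild-type rats 1 and 2 these 8 values were 0.45, 0.20, 0.57, 0.51, 0.34, 0.55, 0.10 and 0.50. Without wild-type rat 1 and heterozygous rat 3 those of Cd74 were 0.82, 0.91, 0.68 and -0.12. These libraries share depth and scaling. In the lymphocyte sum Cd4 was at 3.20 to 6.41 CPM, the next marker, Lck, at 0.546 to 1.05 and Cd3e at 0.0755 to 0.384. No r was taken for the lymphocyte markers without Cd4.

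The RT1 region is highly polymorphic, so a rat line of another haplotype can lose or gain reads at an RT1 locus whole. RT1 loci were counted that had under 3 counts in a library and at least 10 in another. Of 33 RT1 loci 4 met this (12.1%), against 640 of 17486 symbol loci (3.66%), and in 0 of these 4 was a whole genotype under 3 counts in sum. They were a locus of RT1-M4, of RT1-CE4, of RT1-CE1 and of RT1-DMa. None of the 10 member loci was among them, the lowest count of a member being 18.0, in RT1-Db1. None of the 4 was absent from all rats of a genotype, and the labels give no haplotype.

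The RT1-DMa locus had the largest counts of the 4. It is a second locus of that name, at 5240975 to 5244386 on the minus strand of chromosome 20 (rn6), beside the main locus at 3935529 to 3938915 on the plus strand. The second locus held 37.2, 74.7 and 75.3 expected counts in homozygous rats, 114, 0 and 37.9 in heterozygous rats and 37.1, 0 and 0 in wild-type rats. All homozygous rats had reads there, and rats without them occurred among heterozygous and wild-type rats. It did not pass the test (log2 fold change 2.47, edgeR unadjusted p = 0.107). With both loci summed, RT1-DMa was at 6.32, 6.50 and 6.07 CPM in homozygous rats, 4.83, 5.58 and 6.62 in heterozygous rats and 4.04, 2.42 and 4.16 in wild-type rats. The sums in homozygous and heterozygous rats all exceeded those in wild-type rats. Near-identical copies divide reads between them, so a value per copy is uncertain.

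**Figure D5:**
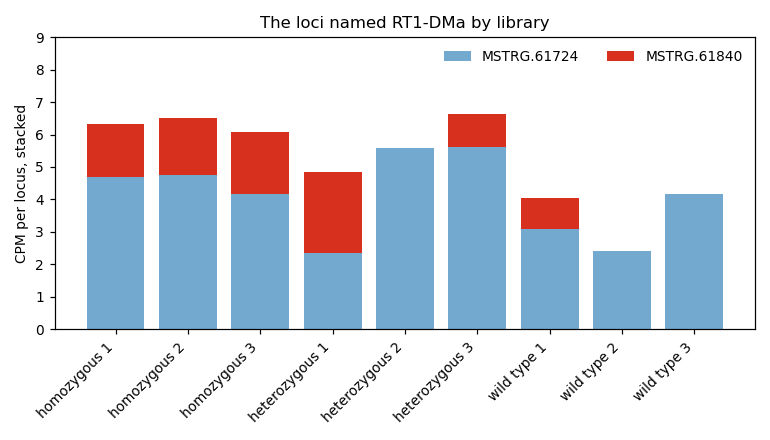
Stacked CPM (vertical axis, from 0) of the main and second locus named RT1-DMa in each library. The second locus (MSTRG.61840) has reads in all homozygous rats, in heterozygous rats 1 and 3 and in wild-type rat 1, and 0 in the other 3 libraries.

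The other 3 loci had few counts. RT1-M4 held 12 counts in wild-type rat 2 and 1 to 4 in the rest. The RT1-CE4 locus held under 3 counts in homozygous rat 1 and 6.30 to 18.9 in the rest. The RT1-CE1 locus held reads in homozygous rat 3 (8.01), heterozygous rat 2 (10.7) and wild-type rat 3 (3.22), and 0 in the other 6. Among 93 isoforms of RT1 loci, 9 had under 3 counts in a library and at least 30 in another. They include an isoform of the member RT1-CE10, at 2.79 counts in wild-type rat 1 and 31.0 in heterozygous rat 3. An RT1-T24-3 isoform was the plainest, at 50.1 counts in wild-type rat 3 and at most 5 in the other 8 libraries. These differences ran between rats of the same genotype.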

How the data were processed

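Whole-brain RNA of 9 rats (3 homozygous, 3 heterozygous, 3 wild type) was depleted of ribosomal RNA, made into stranded libraries and read in pairs of 100 bases, with 4 libraries per lane, per the labels' protocols. Cutadapt, HISAT2, StringTie and RSEM were used with rn6, per the submitters' processing notes, which as held here give no order or settings. Values deposited by the authors were expected counts of RSEM, not normalized, for loci and for isoforms. The deposited TPM values were divided by effective length and scaled to a fixed total by the authors' RSEM run, per the file headers. The deposited isoform percent is the share of a locus that RSEM gave an isoform, per the file headers.

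Expected counts were rounded to whole numbers and fitted with edgeR 4.0.16 (quasi-likelihood, TMM scaling, its default filter on low counts) under R 4.3.3, with all 9 libraries in 1 fit and 3 comparisons. P-values were adjusted by Benjamini-Hochberg over 39057 of 114601 loci and 63699 of 145707 isoforms, with a threshold of 0.05. The fit was tested on simulated data. Levels are CPM on TMM-scaled libraries. TPM was compared by exact permutation tests, whose smallest p for 3 against 3 is 0.1. Alternatives were DESeq2 1.42.0, limma-voom (limma 3.58.1), other scaling, no filter, a replicate block, an effective-length offset and leaving out each library. A covariate for the spike-in set, and TPM summed over the isoforms that carry a member's own name, were added after seeing the data. The members and lists were chosen with earlier results of these data known. Besides the members, the text names from each list up to 3 loci of smallest p in homozygous against wild-type rats, RT1 loci with all-or-none counts, and the 5 symbol loci closest to Cd74 and to B2m. A gene that this rule names in the interferon list is not reported here. Isoforms, copies and the RT1-T24-3 isoform were picked after their values were seen. Deviations from the genotype mean had r of -0.108 to 0.269 between same-numbered rats and -0.376 to 0.285 between others. Same-numbered rats did not deviate together in every pair, and the labels state no pairing, so the main fit took no pairs. Replicates differed by more than sampling noise. Promoter sequences came from RefSeq (GRCr8), and gene coordinates are those of rn6 in the deposited annotation. Depth limits the low genes, and the counting error of near-identical RT1 copies is not in the SE.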

Additional observations from a re-analysis of the deposited data

How the results depend on the processing

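Of 190 values for the members in homozygous against wild-type rats under the alternatives, 184 kept their direction and their side of the threshold, as did 185 of 190 in heterozygous against wild-type rats and 169 of 190 in homozygous against heterozygous rats. For members called the count was 0 under each alternative and each left-out library, except with the spike-in set as a covariate, an alternative chosen after seeing the data, which gave 1 in homozygous against wild-type rats (RT1-A2). In that fit homozygous rats share their set with 1 wild-type library, and the cause was not tested.

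Loci called in homozygous against wild-type rats (0) numbered 6 with no filter on low counts, 1 with the replicate block, 33 with DESeq2 and 2188 with the spike-in covariate, and 0 to 5 with a library left out. In heterozygous against wild-type rats (3) there were 5 with no filter, 18 with DESeq2, 5 with the effective-length offset, 7 with only the 2 genotypes compared and 1 with the spike-in covariate, and 1 to 28 with a library left out, the most without heterozygous rat 1. In homozygous against heterozygous rats (1) there were 2 with DESeq2 size factors, no filter, limma-voom, the replicate block, the effective-length offset or only the 2 genotypes compared, 6 with DESeq2 and 5 with the spike-in covariate, and 1 to 18 with a library left out, the most without heterozygous rat 1. Isoforms called in homozygous against wild-type rats (0) were 7 with no filter and 0 to 5 with a library left out, the most without wild-type rat 2. In heterozygous against wild-type rats (1) they were 3 with no filter, 0 with limma-voom or the replicate block, and 0 to 6 with a library left out. In homozygous against heterozygous rats (0) they were 6 with no filter and 0 to 1 with a library left out. The labels do not say whether same-numbered rats belong together, so the block may or may not pair samples. With it, 3 of 10 members were higher in homozygous than in wild-type rats at an unadjusted edgeR p under 0.05, beside 2756 of 39057 loci. In heterozygous against wild-type rats 4 of 10 were higher, beside 812 of 39057 loci. In both comparisons 0 of 10 were lower, beside 1942 and 1013 loci.

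With the spike-in covariate, the log2 fold change in homozygous against wild-type rats was -0.19 for RT1-Da and -0.18 for B2m. In heterozygous against wild-type rats B2m was at 0.039 with no filter and 0.094 with the covariate. In homozygous against heterozygous rats RT1-CE10 was at 0.061 with limma-voom and 0.029 with the replicate block, and with the covariate B2m was at -0.27 and Tap1 at 0.35. Psmb8 was there at -0.026 with no filter, -0.00098 with the effective-length offset, -0.0016 with only the 2 genotypes compared, -0.042 with its loci summed and -0.15 with the covariate. The cause was not tested. Leaving out a library turned the direction in these ranges: in homozygous against wild-type rats -0.078 to 0.58 for RT1-Db1 and -0.15 to 0.19 for B2m, and in heterozygous against wild-type rats -0.23 to 0.11 for B2m. In homozygous against heterozygous rats the ranges were -0.19 to 0.30 for RT1-CE10, -0.31 to 0.073 for RT1-Da, -0.056 to 0.20 for B2m, -0.24 to 0.30 for Psmb8, -0.014 to 0.44 for Psmb9 and -0.49 to 0.035 for Cd74.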
